A study of Macaca fascicularis with 10 samples.

Results

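Chromatin remodelers and histone modifiers were followed as a set of genes across parthenogenetic haploid stem cells, fertilised-embryo stem cells and somatic cells of the cynomolgus monkey (Macaca fascicularis). The set took every gene whose annotated symbol begins with SMARC, ARID, JARID, or a numbered KDM, KMT, KAT, CHD, HDAC, SIRT or CBX name, together with EZH1, EZH2, SUZ12 and EED. Where a gene had several probe sets annotated to it alone, the brightest on average (in log2) stood for it. By that rule 77 members were measured, of 14132 genes with such a probe set, and 75 of them passed the filter on low signal, of 11639 genes that did. ARID3C and KMT5C did not pass it. Genes were thus chosen by name, and the probe set standing for each by its mean signal over all arrays. This rule uses no difference between groups, but the set was proposed with earlier results of these data known. A further 24 symbols of the same families, among them EZH2, SMARCA4, SMARCA5, CHD4, KDM5B and KDM6A, are named for none of the probe sets here and were not analysed.

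These proteins decide how tightly DNA is packed around histones. ATP-driven remodelers of the SWI/SNF (BAF), ISWI and CHD families slide or evict nucleosomes, writers such as the KMT and KAT enzymes add methyl or acetyl groups to histone tails, erasers such as the KDM, HDAC and SIRT enzymes remove them, and CBX proteins bind methylated tails. Embryonic stem cells are known for a particular BAF complex, for Polycomb silencing of developmental genes and for open, mobile chromatin, and several of the members come as paralogues that replace one another when cells leave the pluripotent state.

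RNA of 10 samples was hybridised to Affymetrix Rhesus Macaque arrays, 1 array per sample. PG-haESCs, parthenogenetic haploid embryonic stem cells, came from blastocysts that arose without sperm and carry a haploid karyotype label. They gave 5 arrays, which are listed below in the order line MPH1 at passages 8 and 11 (code M1), line MPH1 at passages 7 and 9 (code M2) and line MPH2 at passage 4. ICSI ESCs, diploid embryonic stem cells from embryos made by intracytoplasmic sperm injection, gave 3 arrays, in the order MES1 at passage 12, MES2 at passage 4 and MES3 at passage 4. Fibroblasts, labelled diploid female somatic cells, gave 2 arrays of 1 line, MF, at passages 14 and 15. Stem cells of both kinds were grown on feeder cells with Y27635 and Thiazovivin. No label ties arrays of 1 line to separate cultures, so the p-values reflect only how far these samples scatter, and some of that scatter may be technical. In bulk RNA, fewer cells of a type and less RNA per cell cannot be told apart.

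All values below are linear MAS5 signals scaled to the same trimmed mean on every array, or log2 changes between groups with their standard error (SE) from limma. A member is said to be called, or to be higher or lower, where its p-value adjusted over all 34139 probe sets tested was under 0.05. On the ESC arrays, 8 of 8 measured pluripotency markers lay above the array median every time, against 1 and 2 of 8 on the fibroblast arrays. The arrays labelled fibroblast carried 9 of 10 measured fibroblast markers above the median, but PG-haESC arrays carried 8 to 9 and ICSI ESC arrays 7 to 10. The fibroblast arrays also carried all 10 measured epidermal genes above it. Their mean log2 signal was 14.88 and 14.91, against 4.78 to 6.03 on PG-haESC arrays and 5.11 to 5.84 on ICSI ESC arrays. All 5 measured leukocyte markers lay above the median on the fibroblast arrays as well. Their mean log2 signal was 10.11 and 10.09, against 4.52 to 5.86 on PG-haESC arrays and 4.44 to 6.10 on ICSI ESC arrays. The MES1 array stood apart among the ESCs by its fibroblast markers, whose mean log2 signal was 11.66 there, against 6.99 and 8.77 on the other ICSI ESC arrays and 7.54 to 10.10 on PG-haESC arrays. That was close to the fibroblast arrays themselves, at 11.88 and 11.90, and all 10 measured fibroblast markers lay above the median on MES1. The actin 3′ to 5′ signal ratio, a measure of RNA integrity, was 2.92 to 4.96 on PG-haESC arrays, ran 5.62, 2.30 and 2.97 over the ICSI ESC arrays, and stood at 8.39 and 9.14 for the fibroblasts.

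Between PG-haESCs and ICSI ESCs, none of the 75 members was called by limma, where 0.576% of all genes tested were called (67 of 11639). At an unadjusted p under 0.05 there were 6 members, 8.0% of the set, against 8.79% of all genes. The arrays of the groups did not overlap for 5 members, 6.67% of the set, against 8.29% of all genes, with PG-haESCs above for HDAC8, KDM4C, KDM5C and SMARCB1 and below for SMARCD1. The median log2 change of the members was -0.01, against -0.02 over all genes tested, and the members ran from -1.19 for ARID5B to 0.83 for HDAC8. For 51 of the 75 members the 95% interval of the change lay wholly inside a 2-fold change either way. The remaining members have intervals that reach further, so these arrays leave a 2-fold difference undetermined there.

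**Figure D1:**
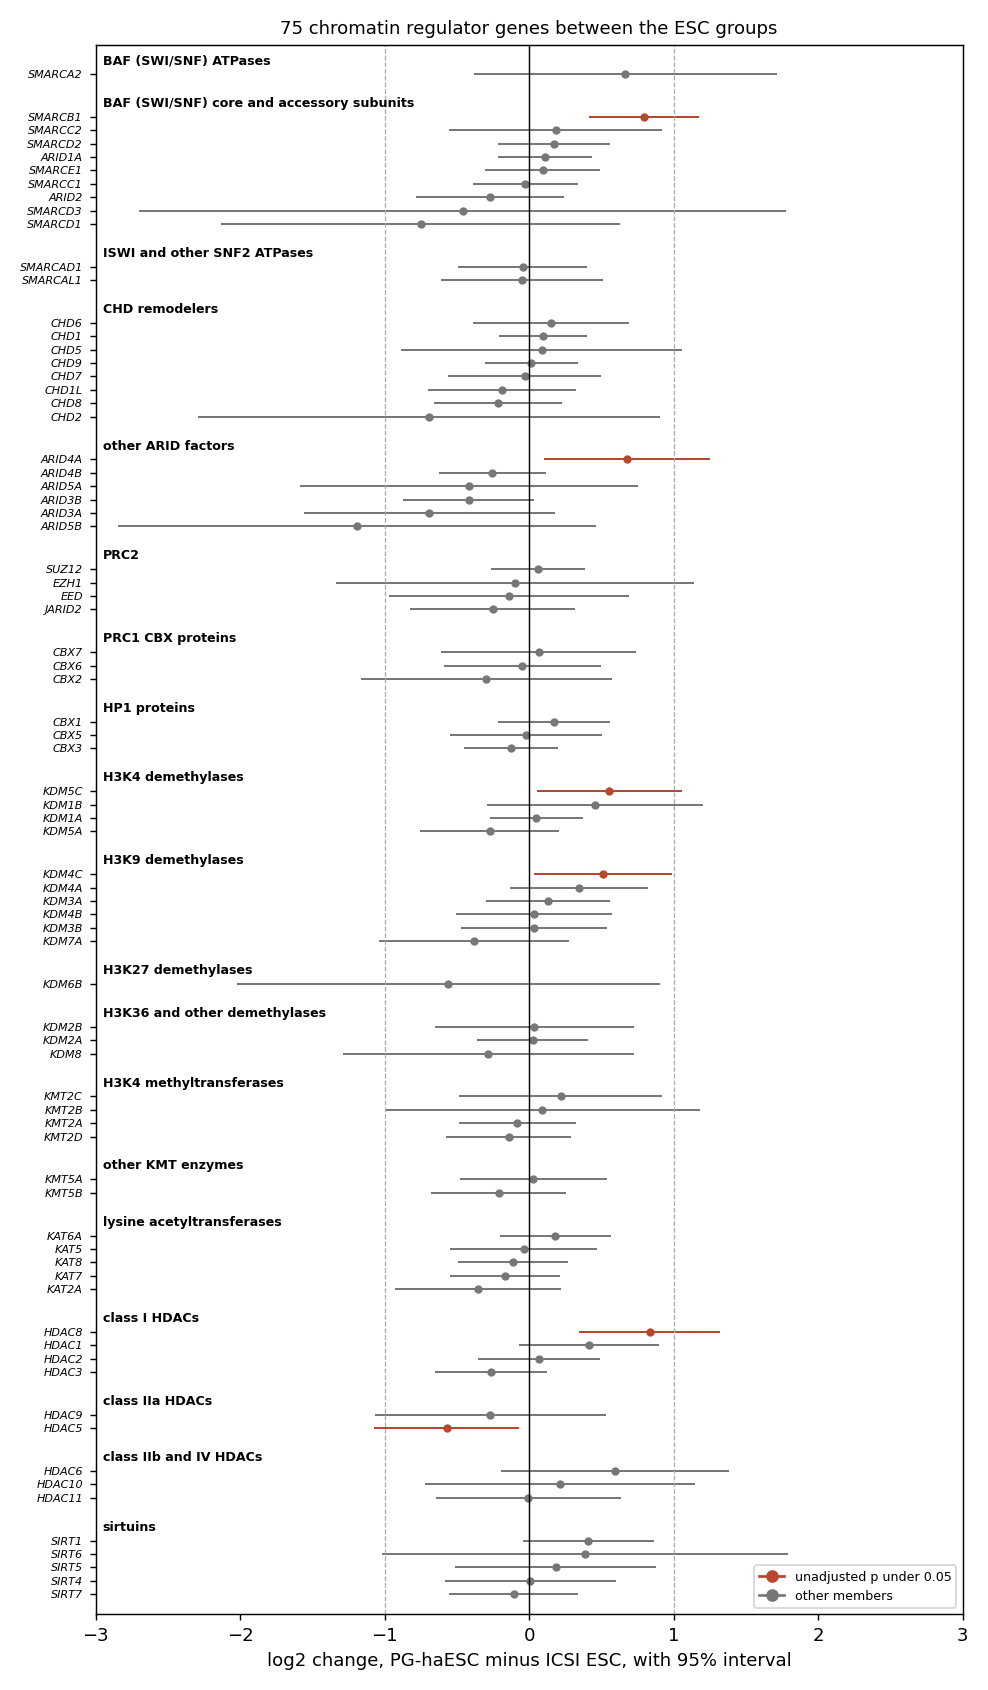
Log2 change of the 75 members tested, PG-haESC minus ICSI ESC (x axis), with the 95% interval as a bar, grouped by role down the page; dashed lines mark a 2-fold change. The 6 members with an unadjusted p under 0.05 are coloured (SMARCB1, ARID4A, KDM5C, KDM4C, HDAC8, HDAC5), and the longest bars belong to dim or variable members such as ARID5B, SMARCD3 and CHD2.

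SMARCB1, the core BAF subunit that helps anchor the complex on the nucleosome and a known tumour suppressor, had the smallest p of the set between the ESC groups. Its signals were 10169, 8581, 10586, 10219.8 and 9837 on PG-haESC arrays, against 4385, 6216 and 6741 on ICSI ESC arrays. Every PG-haESC array lay above every ICSI ESC array, and the lowest signal was that of MES1. The log2 change was 0.79 ± 0.17 (SE), with an unadjusted p of 0.00056 and an adjusted p of 0.080 in limma. SMARCB1 was called in 5 of 24 alternative settings, among them arrays taken as independent samples (adjusted p 0.022) and quantile normalization (0.029). It was not called with arrays averaged per line, and its adjusted p reached 0.83 over the alternatives. Its other tested probe set gave a log2 change of 0.38 with an adjusted p of 0.67. The gene lies on chromosome 10 of this species.

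HDAC8, an X-linked class I deacetylase that acts on the cohesin subunit SMC3, had signals of 847, 765, 995, 916 and 1186 on PG-haESC arrays, against 645, 537 and 459 on ICSI ESC arrays. The groups did not overlap, and the log2 change was 0.83 ± 0.22 (adjusted p 0.17). It was not called under any of the 24 alternatives. KDM5C, an X-linked demethylase of histone H3 lysine 4, had 909.6, 677, 902, 803 and 663 on PG-haESC arrays, against 391, 587 and 614 on ICSI ESC arrays. Its groups did not overlap either, and its log2 change was 0.56 ± 0.23 (adjusted p 0.58). HDAC6, the cytoplasmic tubulin deacetylase and the last of the X-linked members, had 256, 174, 280.1, 213 and 291 on PG-haESC arrays, against 124, 172 and 203 on ICSI ESC arrays, with a log2 change of 0.59 ± 0.36 (adjusted p 0.86). Its groups overlapped. The 3 members placed on X all had a positive change, between 0.56 and 0.83, and none was called, and the 72 other members had a median of -0.02. That difference was not tested.

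ARID4A, a partner of the retinoblastoma protein in the SIN3 deacetylase complex, had signals of 312, 354, 452, 479.5 and 487 on PG-haESC arrays, against 235, 316 and 245 on ICSI ESC arrays. Only the lowest PG-haESC array fell within the ICSI ESC range, and the log2 change was 0.68 ± 0.26 (adjusted p 0.53). HDAC5, a class IIa deacetylase that shuttles between nucleus and cytoplasm, was the member with the smallest p in the negative direction. It had 752, 882, 728, 969.7 and 505 on PG-haESC arrays, against 1102, 937 and 1121 on ICSI ESC arrays, a log2 change of -0.57 ± 0.23 (adjusted p 0.56). The PG-haESC array of MPH1 at passage 9 lay above the lowest ICSI ESC array. KDM4C, a demethylase of histone H3 lysine 9, gave 0.51 ± 0.22 (adjusted p 0.61) with groups that did not overlap.

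**Figure D2:**
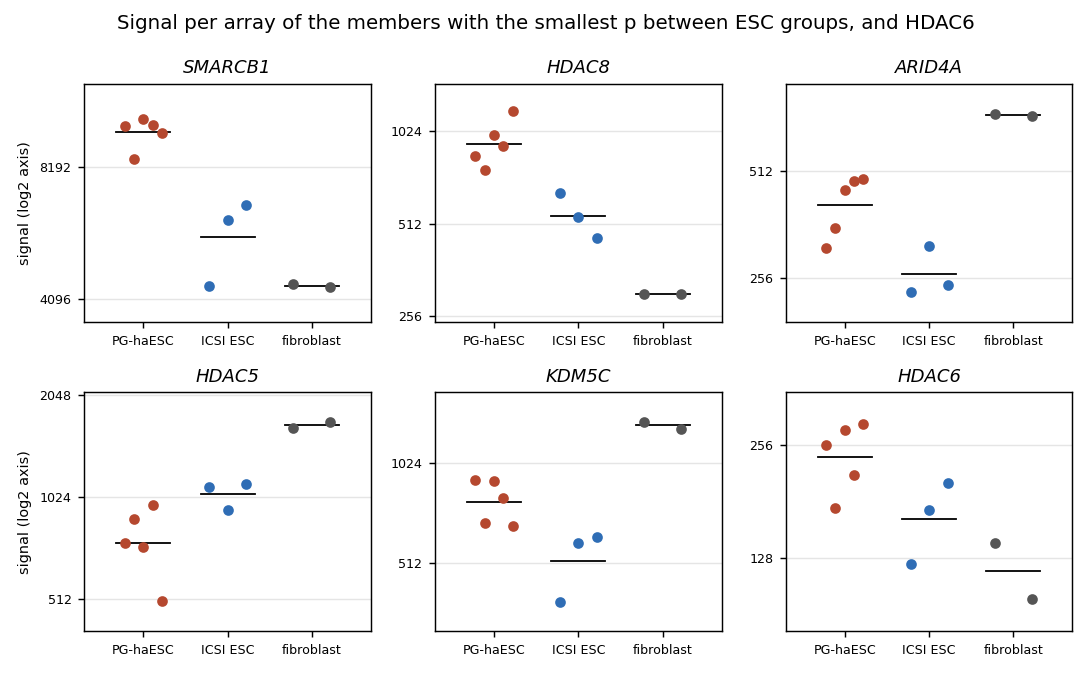
Signal per array on a log2 axis for SMARCB1, HDAC8, ARID4A, HDAC5, KDM5C and HDAC6 (points, 1 per array; bars, geometric means) in PG-haESC, ICSI ESC and fibroblast arrays. SMARCB1, HDAC8 and KDM5C show no overlap between the ESC groups, while HDAC6, ARID4A and HDAC5 overlap; none was called between the ESC groups.

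SMARCA2 shows how far 1 array can carry a comparison of the ESC groups. This gene encodes BRM, the BAF ATPase that is the alternative to SMARCA4 (BRG1) and is usually low in pluripotent cells. Its signals were 1391, 1445, 952, 1071 and 1047 on PG-haESC arrays, against 2098, 373 and 483 on ICSI ESC arrays. MES1, the ESC array with the highest fibroblast markers, was the highest of all 8 ESC arrays, while MES2 and MES3 were the lowest. The log2 change was 0.67 ± 0.48 (adjusted p 0.91) with all arrays and 1.45 (adjusted p 0.011) without MES1. ARID5B, a partner of the demethylase PHF2 with roles in mesenchymal and fat cell development, behaved alike on that array, at 1490.3 against 216 and 375 on the other ICSI ESC arrays. PG-haESC arrays had 82.8, 305, 83.4, 219 and 501 for ARID5B, and its log2 change of -1.19 ± 0.76 had an adjusted p of 0.88. The part of fibroblast-marker cells in these MES1 signals was not tested.

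In each group the members' arrays scattered less than those of genes in general. The median SD of log2 signal over members was 0.25 in PG-haESCs, 0.32 in ICSI ESCs and 0.08 in fibroblasts, against 0.35, 0.35 and 0.10 over all genes tested. MES1 held the highest of the 3 ICSI ESC signals for 34 of the 75 members and the lowest for 29. Among the 5 PG-haESC arrays, MPH1 at passage 11 was highest for 25 members and lowest for 24, and MPH2 was lowest for 25. EED, the Polycomb subunit that reads the mark its complex makes, was among the widest of the bright members, with 2222, 1369.7, 3486, 2137 and 3884 on PG-haESC arrays and 1885, 3738 and 3423 on ICSI ESC arrays. SMARCD3, a BAF subunit of heart and muscle, ran from 13.7 to 233 on PG-haESC arrays and from 38.3 to 197 on ICSI ESC arrays, so that its level near the array median is poorly determined.

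Both ESC groups differed from the fibroblast arrays at many members, in each direction. In PG-haESCs 21 of 75 members were higher than in fibroblasts, 28.0% against 23.0% of all genes tested, and 17 were lower, 22.7% against 17.3% of all genes. In ICSI ESCs 21 were higher, 28.0% against 22.6% of all genes, and 16 were lower, 21.3% against 17.0% of all genes. These shares lie a little above the background of each comparison and are not a property shown for the set. The median log2 change of the members was 0.04 for PG-haESCs and 0.12 for ICSI ESCs, against 0.06 and 0.08 over all genes. All PG-haESC arrays lay above both fibroblast arrays for 28 of the 75 members and below them for 25. Over all 11639 genes these counts were 3956 and 3513. For ICSI ESCs the members gave 25 and 27, and all genes 4275 and 3809. Separation from the 2 fibroblast arrays was thus common among all genes. Both comparisons use the same 2 fibroblast arrays, so their values are given side by side and are not independent of each other. The epidermal, leukocyte and cell cycle genes and the actin ratio moved with the same contrast, and their part in the members' values was not tested. All 7 measured G2/M genes were higher in each ESC group.

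Fewer members were called when log2 signals were centred on array medians, which moved the median change over all genes to 0.39 for PG-haESCs and 0.36 for ICSI ESCs. There 17 members were higher and 7 lower in PG-haESCs, and 14 were higher and 6 lower in ICSI ESCs. With the actin ratio as a covariate, 27 members were called in PG-haESCs and 21 in ICSI ESCs. The members called under all 24 alternatives tried in PG-haESCs were 14, namely ARID3B, CBX1, CBX3, CBX5, CBX7, CHD1, HDAC1, HDAC2, JARID2, KDM1A, SIRT1, SIRT7, SMARCB1 and SMARCC1. In ICSI ESCs there were 13, namely ARID3A, ARID3B, CBX1, CBX3, CBX7, CHD1, CHD8, HDAC2, JARID2, KDM1A, KDM1B, SMARCA2 and SMARCC1.

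**Figure D3:**
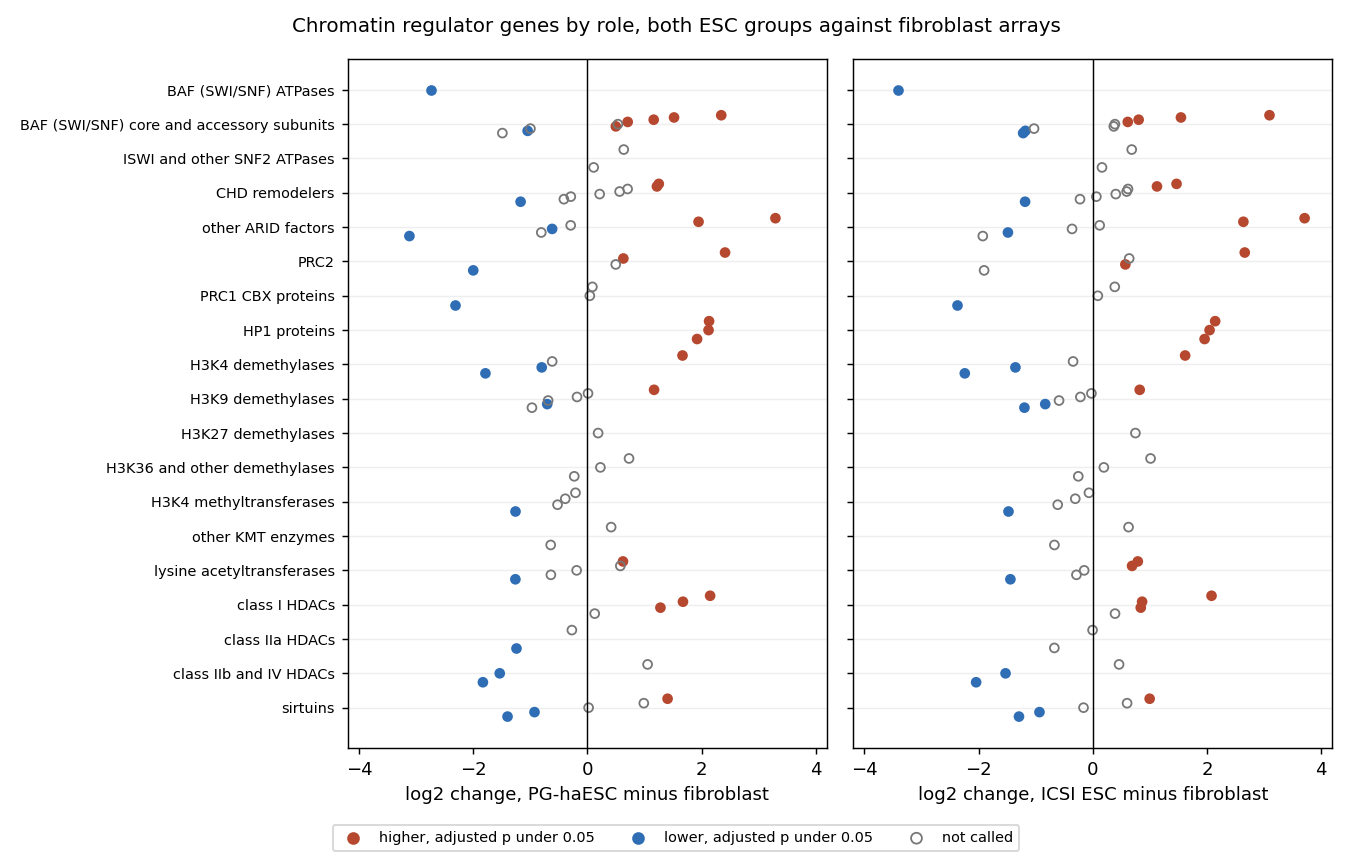
Log2 change of the 75 members, 1 point per gene, PG-haESC minus fibroblast on the left and ICSI ESC minus fibroblast on the right, with roles down the page. Filled points were called (red higher, blue lower) and open points were not; the 3 HP1 genes sit near 2 on both sides and the class IIb and IV deacetylases HDAC10 and HDAC11 below -1.5.

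Among the BAF genes, the ATPase SMARCA2 was lower in both ESC groups, while several core subunits were higher. SMARCA2 had 7356 and 7959 on fibroblast arrays, above every ESC array, which gave log2 changes of -2.74 ± 0.58 in PG-haESCs (6.67-fold lower, adjusted p 0.0031) and -3.40 ± 0.59 in ICSI ESCs (10.6-fold lower, adjusted p 0.00079). With the actin ratio as a covariate these became -0.81 (adjusted p 0.17) and -1.31 (adjusted p 0.0496, still called). All 4 other tested probe sets of SMARCA2 were lower as well, with log2 changes between -2.96 and -2.37 in PG-haESCs and between -3.79 and -3.25 in ICSI ESCs.

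Of the 9 core and accessory BAF subunits tested, 5 were higher and 1 was lower in PG-haESCs, and 4 were higher and 2 were lower in ICSI ESCs. Over all genes 23.0% were higher and 17.3% lower in PG-haESCs, and 22.6% higher and 17.0% lower in ICSI ESCs. These shares are also the background for the counts of the other roles. SMARCC1 (BAF155), the scaffold subunit typical of the embryonic stem cell complex, had 7081, 7096, 8187, 7524 and 5916 on PG-haESC arrays and 5788, 7759 and 7836 on ICSI ESC arrays, against 2379 and 2459 on fibroblast arrays. Every ESC array lay well above both fibroblast arrays, with log2 changes of 1.52 ± 0.20 and 1.55 ± 0.20 (adjusted p 0.00011 and 0.00010). SMARCC2 (BAF170), the paralogue that is scarce in that complex, had 332, 518, 342, 389.9 and 219 on PG-haESC arrays and 416, 212 and 264 on ICSI ESC arrays, against 618 and 677 on fibroblast arrays. All ESC arrays lay below both fibroblast arrays. The change of -1.18 ± 0.41 was called in ICSI ESCs (adjusted p 0.045), whereas -1.0 ± 0.41 in PG-haESCs was not (adjusted p 0.082). With the actin ratio as a covariate, the SMARCC2 changes were -0.11 (adjusted p 0.89) in ICSI ESCs and 0.003 (adjusted p 0.997) in PG-haESCs. Another probe set of SMARCC2 was called in PG-haESCs.

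SMARCB1 was 2.24-fold higher in PG-haESCs than in fibroblasts, which had 4435 and 4368 (log2 change 1.16 ± 0.21, adjusted p 0.0010). In ICSI ESCs its change was 0.37 ± 0.21 (adjusted p 0.21), and the MES1 array lay between the fibroblast arrays. The other tested probe set of SMARCB1 was called in ICSI ESCs against fibroblasts, so the missing call there depends on the probe set. SMARCD1 (BAF60A), a subunit that links BAF to transcription factors, had 313, 568, 327, 319 and 582 on PG-haESC arrays and 619, 664 and 898 on ICSI ESC arrays, against 31.5 and 223 on fibroblast arrays. The fibroblast arrays of the same line differed by more than any ESC arrays did, and the log2 changes of 2.35 ± 0.77 and 3.10 ± 0.78 fell to 0.92 (adjusted p 0.18) and 1.68 (adjusted p 0.023) without the first fibroblast array. Without the second one the PG-haESC value was 3.75. Of the fibroblast arrays, the first lay below its array's median of 121 and the second above its median of 110.2. With each array's median as a floor for its signals, the PG-haESC value was 1.38 (adjusted p 0.025). The call in PG-haESCs held in 16 of 24 alternatives.

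SMARCD2, a subunit with a role in granulocyte formation, was lower in PG-haESCs (-1.05 ± 0.21) and in ICSI ESCs (-1.22 ± 0.22). SMARCE1 (BAF57) was higher in both, by 0.71 ± 0.22 (adjusted p 0.025) and 0.61 ± 0.22 (adjusted p 0.049) on the log2 scale. With the actin ratio as a covariate its changes were 0.26 and 0.12, neither called (adjusted p 0.49 and 0.77), and its calls held in 18 of 24 alternatives in PG-haESCs and in 8 of 24 in ICSI ESCs. ARID1A, the DNA-binding BAF subunit often mutated in cancer, had signals of 13029 to 14520.2 on PG-haESC arrays and 10457, 14248 and 13524 on ICSI ESC arrays, against 9717 and 9576 on fibroblast arrays. All ESC arrays were above both fibroblast arrays. The change was called in PG-haESCs (0.50 ± 0.18, adjusted p 0.047) but not in ICSI ESCs (0.39 ± 0.18, adjusted p 0.12). That call held in only 9 of 24 alternatives, and another probe set of ARID1A was called in ICSI ESCs. ARID2, a subunit of the PBAF form, was called in ICSI ESCs (0.80 ± 0.28, adjusted p 0.046) and not in PG-haESCs (0.54 ± 0.28, adjusted p 0.17). Its call was lost with all its probe sets averaged (0.08, adjusted p 0.82) and with the actin ratio as a covariate (0.65, adjusted p 0.30). It was also lost with arrays averaged per line. Between the ESC groups, none of these genes was called.

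Of the 8 CHD remodelers tested, CHD1 and CHD8 were higher and CHD9 was lower in each ESC group. CHD1, which binds active H3 lysine 4 methylation and is known to keep mouse embryonic stem cell chromatin open, had 2965 to 3455 on PG-haESC arrays and 2959 to 3014 on ICSI ESC arrays, against 1321 and 1416 on fibroblast arrays (log2 changes 1.22 ± 0.17 and 1.13 ± 0.17). CHD8, a repressor of beta-catenin targets linked to autism, gave 1.25 ± 0.24 and 1.47 ± 0.25. CHD9 gave -1.17 ± 0.18 and -1.18 ± 0.18, with ESC arrays at 1601 to 1909 against 3945 and 3967 on fibroblast arrays. CHD1L, CHD2, CHD5, CHD6 and CHD7 were not called in any comparison. SMARCAD1 and SMARCAL1, the members of the group of ISWI and other SNF2 ATPases that were measured, were not called either, with SMARCAD1 at 0.64 ± 0.25 (adjusted p 0.065) in PG-haESCs and 0.68 ± 0.25 (adjusted p 0.052) in ICSI ESCs.

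The AT-rich interaction domain factors outside BAF included the member with the largest positive change in both fibroblast comparisons. That gene, ARID3B, a DNA-binding factor that can act with ARID3A, had 1769, 1336, 1356, 1624 and 1246 on PG-haESC arrays and 1557, 1939 and 2261 on ICSI ESC arrays, against 149 and 141 on fibroblast arrays. It was 9.81-fold higher in PG-haESCs (log2 change 3.29 ± 0.25, adjusted p 1.6e-06) and 13.1-fold higher in ICSI ESCs (3.71 ± 0.25, adjusted p 7.8e-07). ARID3A was higher by 1.95 ± 0.48 and 2.64 ± 0.49 on the log2 scale, with MPH2 at 278 as the lowest ESC array against 193 and 108 on fibroblast arrays.

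ARID5B moved in the opposite direction, with 1837 and 1918 on fibroblast arrays, above all ESC arrays. Its change was -3.12 ± 0.92 in PG-haESCs (8.67-fold lower, adjusted p 0.021) and -1.93 ± 0.93 in ICSI ESCs (adjusted p 0.14), where the MES1 array came near the fibroblast level. A second probe set of ARID5B gave -0.80 and -2.27, neither called. ARID4A was lower in ICSI ESCs (-1.49 ± 0.32, adjusted p 0.0035) and not called in PG-haESCs (-0.81 ± 0.32, adjusted p 0.070), and ARID4B was lower in PG-haESCs (-0.62 ± 0.20, adjusted p 0.034) and not called in ICSI ESCs (-0.36 ± 0.20, adjusted p 0.20). The ARID4B call in PG-haESCs held in 17 of 24 alternatives. ARID5A was not called.

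Polycomb repressive complex 2 (PRC2) methylates histone H3 at lysine 27, and 4 of its genes were tested. JARID2, a cofactor that brings PRC2 to its targets in stem cells, had 11726, 7095, 9781, 10466 and 8627 on PG-haESC arrays and 7442, 11748 and 15419 on ICSI ESC arrays, against 1857 and 1638 on fibroblast arrays. It was 5.32-fold higher in PG-haESCs (2.41 ± 0.32, adjusted p 0.00010) and 6.33-fold higher in ICSI ESCs (2.66 ± 0.32, adjusted p 5.4e-05), and its second probe set gave 2.38 and 2.50. SUZ12, the subunit that holds the complex together, was higher by 0.63 ± 0.18 (adjusted p 0.016) and 0.57 ± 0.18 (adjusted p 0.027).

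EZH1, the catalytic subunit that prevails in resting and differentiated cells, had 115, 47.2, 117, 163 and 177 on PG-haESC arrays and 241, 102 and 87.3 on ICSI ESC arrays, against 552 and 422 on fibroblast arrays. All ESC arrays were below both fibroblast arrays. The change of -2.0 ± 0.69 was called in PG-haESCs (adjusted p 0.042), and the change of -1.90 ± 0.69 in ICSI ESCs was not (adjusted p 0.053). The EZH1 call in PG-haESCs held in 14 of the 23 alternatives that tested it. It was lost with the actin ratio as a covariate (-1.98, adjusted p 0.18) and with quantile normalization (-1.67, adjusted p 0.12). EED had 2095 and 1643 on fibroblast arrays, inside the ESC range, and was not called (0.50 ± 0.46 and 0.64 ± 0.46).

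CBX7, a Polycomb repressive complex 1 (PRC1) chromodomain protein, had 198, 327, 198, 290.2 and 181 on PG-haESC arrays and 245, 179 and 223 on ICSI ESC arrays, against 1106 and 1110.1 on fibroblast arrays. All ESC arrays lay far below both fibroblast arrays, and the changes were -2.31 ± 0.37 (adjusted p 0.00049) and -2.37 ± 0.38 (adjusted p 0.00044). In mouse embryonic stem cells CBX7 is the main PRC1 member of the family. CBX2 and CBX6, the other PRC1 members measured, were not called, with CBX2 at 0.09 ± 0.48 and 0.39 ± 0.49 and CBX6 at 0.04 ± 0.30 and 0.09 ± 0.30.

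The genes of heterochromatin protein 1 (HP1), which binds methylated lysine 9 of histone H3, were all 3 higher in each ESC group. CBX1 had 14285, 11027, 14915, 14515 and 12656 on PG-haESC arrays and 9758, 13883 and 12087 on ICSI ESC arrays, against 3042 and 3018 on fibroblast arrays (2.13 ± 0.21 and 1.96 ± 0.21). CBX3 had 6257 to 8222 on PG-haESC arrays and 7040.1 to 8559 on ICSI ESC arrays, against 1924 and 1935 (1.92 ± 0.18 and 2.05 ± 0.18). CBX5 had 799.6 to 1253 and 906 to 1355, against 268 and 212 (2.12 ± 0.29 and 2.14 ± 0.29). No ESC array came near the fibroblast arrays for any of the 3 genes, and the largest adjusted p was 0.00015. A second probe set of CBX5 did not show it, at 0.37 (adjusted p 0.71) and 0.08 (adjusted p 0.95).

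Histone demethylases did not move as a block. KDM1A (LSD1), which removes methyl groups from lysine 4 of histone H3, had 4168 to 5004 on PG-haESC arrays and 3989.5 to 4855 on ICSI ESC arrays, against 1403 and 1524 on fibroblast arrays, with changes of 1.67 ± 0.18 and 1.62 ± 0.18 (adjusted p 2.0e-05 and 2.9e-05). KDM1B (LSD2), its paralogue with a known role in setting maternal imprints in mouse oocytes, had 179.6, 280.2, 309, 274 and 415 on PG-haESC arrays and 296, 162 and 214 on ICSI ESC arrays, against 904 and 1166. The paralogues thus lay on opposite sides of the fibroblast arrays, with KDM1B at -1.78 ± 0.41 (adjusted p 0.0053) and -2.24 ± 0.42 (adjusted p 0.0013). KDM5C was lower in both groups (-0.80 ± 0.28, adjusted p 0.042, and -1.35 ± 0.28, adjusted p 0.0026), and KDM5A was not called (-0.62 ± 0.27 and -0.34 ± 0.27). The KDM5C call in PG-haESCs held in 14 of 24 alternatives.

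Among the 6 demethylases of lysine 9 tested, KDM4A was higher (1.17 ± 0.26 and 0.82 ± 0.27) and KDM3A was lower (-0.70 ± 0.24, adjusted p 0.037, and -0.83 ± 0.24, adjusted p 0.017) in both groups. KDM3A had another probe set called in the opposite direction (0.99 and 1.23), so its direction depends on the probe set. The KDM3A call in PG-haESCs held in 14 of 24 alternatives. KDM4C was lower in ICSI ESCs (-1.20 ± 0.27, adjusted p 0.0041) and was not called in PG-haESCs (-0.69 ± 0.26, adjusted p 0.063). KDM3B, KDM4B and KDM7A were not called, nor were KDM6B, KDM2A, KDM2B and KDM8, which act on other lysines. Of the methyltransferases, KMT2C was lower in both groups (-1.27 ± 0.39, adjusted p 0.025, and -1.49 ± 0.39, adjusted p 0.012). Both KMT2C calls were lost with all its probe sets averaged (-0.79 and -1.16), with the actin ratio as a covariate (-0.78 and -0.96), with arrays averaged per line, with centring and without the first fibroblast array, and held in 17 and 19 of 24 alternatives. KMT2A, KMT2B, KMT2D, KMT5A and KMT5B were not called. The KMT5B probe set chosen for its brightness gave 0.42 and 0.63, while its other 2 probe sets were called lower, at -2.10 and -2.78 in PG-haESCs and -1.76 and -2.34 in ICSI ESCs.

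Of the 4 class I deacetylases, 3 were higher in each ESC group and HDAC3 was not called. HDAC1 and HDAC2 are catalytic subunits of the SIN3, NuRD and CoREST complexes. HDAC2 had 18009.7, 17942, 16532, 15213 and 10697 on PG-haESC arrays and 15838, 13848 and 12293 on ICSI ESC arrays, against 3349 and 3231 on fibroblast arrays. It was 4.44-fold and 4.23-fold higher (adjusted p 2.3e-05 and 3.4e-05), with its second probe set at 2.77 and 2.60 on the log2 scale. HDAC1 had 4510.1, 2541, 3944, 4110.1 and 3634 on PG-haESC arrays and 3058, 2609 and 2619.8 on ICSI ESC arrays, against 1446 and 1581 (1.28 ± 0.27 and 0.87 ± 0.27). HDAC8 gave 1.68 ± 0.27 and 0.84 ± 0.27 against fibroblast signals of 303 and 302, while its dimmer second probe set gave 0.38 (adjusted p 0.75) and -1.18 (adjusted p 0.28).

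No deacetylase of classes II and IV was higher in an ESC group. HDAC10, a polyamine deacetylase, had 83.9, 212, 130.2, 167 and 222 on PG-haESC arrays and 149, 106 and 173 on ICSI ESC arrays, against 529 and 628 on fibroblast arrays (-1.83 ± 0.52, adjusted p 0.016, and -2.04 ± 0.52, adjusted p 0.0095). HDAC11, the only class IV enzyme, had 206 to 326 and 193 to 330.3, against 776 and 723 (-1.53 ± 0.35 and -1.53 ± 0.36). HDAC5 was lower in PG-haESCs (-1.24 ± 0.28, adjusted p 0.0042) and not called in ICSI ESCs (-0.67 ± 0.28, adjusted p 0.085). With the actin ratio as a covariate these lower calls were all lost. HDAC10 became -1.79 (adjusted p 0.11) and -1.99 (adjusted p 0.095), and HDAC11 -1.05 (adjusted p 0.13) and -1.01 (adjusted p 0.17). HDAC5 became -0.88 (adjusted p 0.12) in PG-haESCs. HDAC6 (1.06 ± 0.44 and 0.46 ± 0.44) and HDAC9 (-0.27 ± 0.44 and 0.00 ± 0.45) were not called.

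Among the 5 sirtuins tested, NAD-dependent deacylases, SIRT1 was higher and SIRT4 and SIRT7 were lower in each ESC group. SIRT1, the nuclear enzyme known for its action on p53, had 3723, 2703, 4504, 4174 and 3940.3 on PG-haESC arrays and 2693, 3152 and 2724 on ICSI ESC arrays, against 1346 and 1513 on fibroblast arrays (1.41 ± 0.25 and 1.00 ± 0.25). SIRT7, of the nucleolus, gave -1.40 ± 0.25 and -1.29 ± 0.25, and the mitochondrial SIRT4 gave -0.93 ± 0.33 in each comparison (adjusted p 0.046 in both). The SIRT4 calls held in 12 of 24 alternatives in PG-haESCs and in 9 of 24 in ICSI ESCs. SIRT5 and SIRT6 were not called. Of the 5 acetyltransferases, KAT7 was higher in both groups (0.62 ± 0.21, adjusted p 0.036, and 0.79 ± 0.21, adjusted p 0.012) and KAT6A, a partner of the same scaffold proteins, was lower (-1.26 ± 0.21 and -1.44 ± 0.21). The KAT7 call in PG-haESCs held in 15 of 24 alternatives. KAT8 was called higher in ICSI ESCs (0.69 ± 0.21, adjusted p 0.025), narrowly missed in PG-haESCs (0.58 ± 0.21, adjusted p 0.051), and had another probe set called lower in both (-1.03 and -1.04). KAT2A (-0.64 ± 0.32 and -0.29 ± 0.32) and KAT5 (-0.19 ± 0.28 and -0.15 ± 0.28) were not called.

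**Figure D4:**
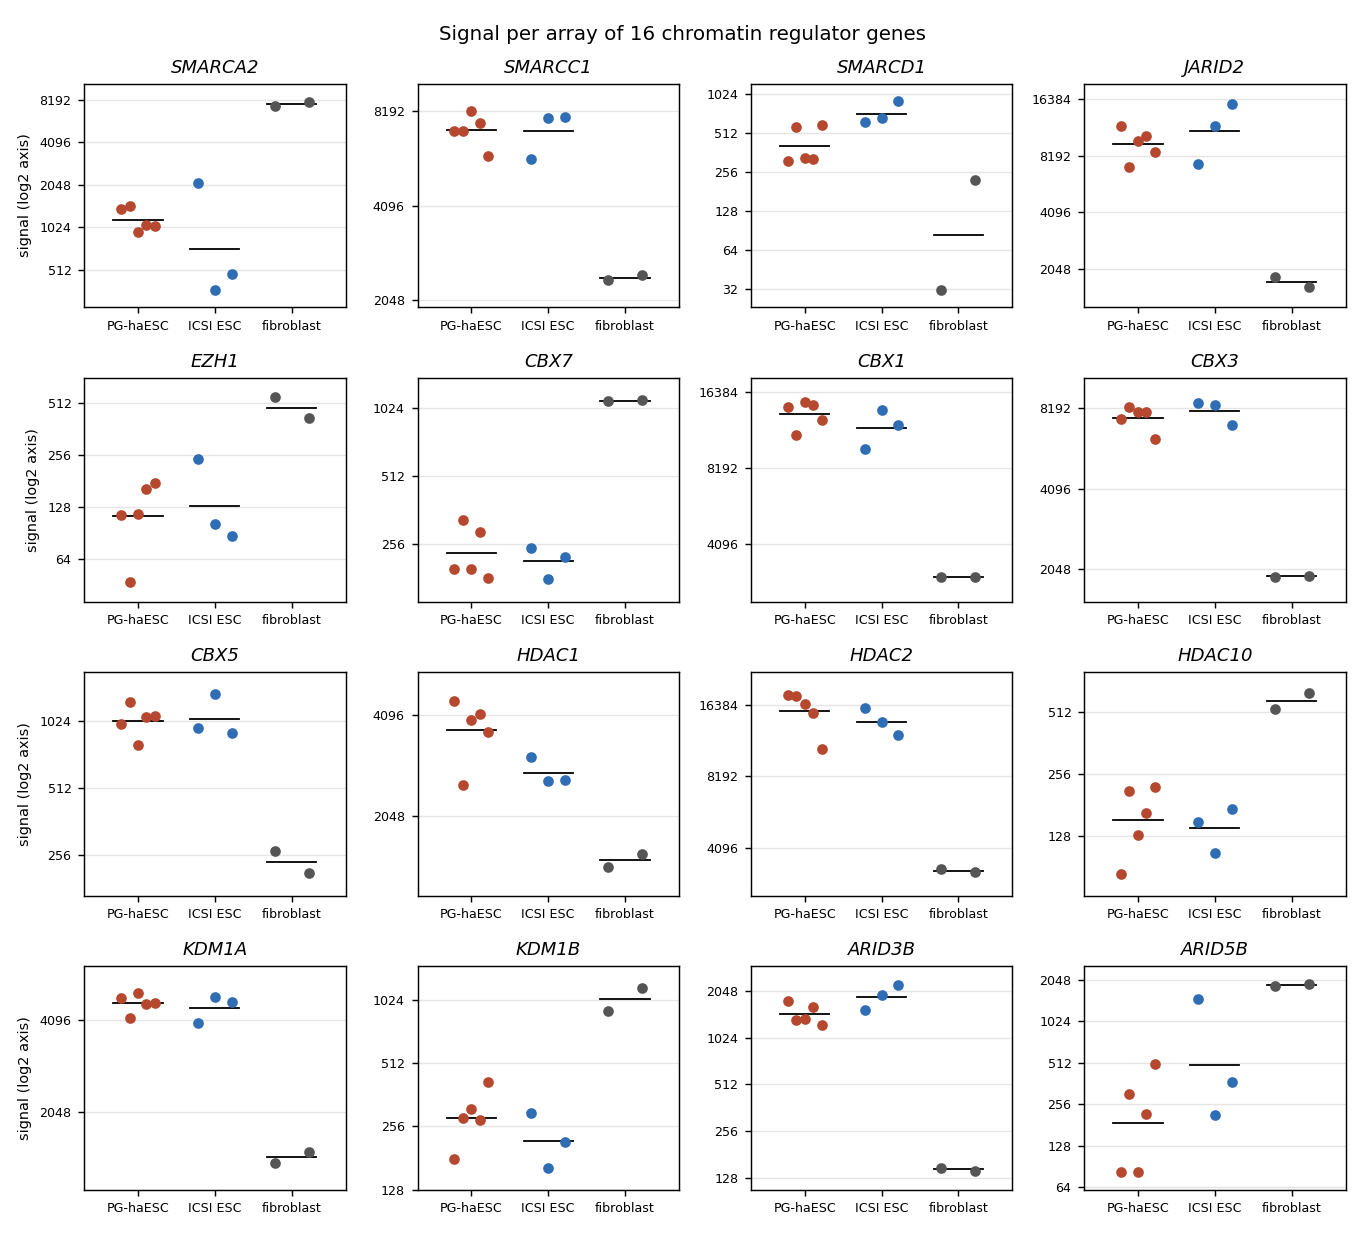
Signal per array on a log2 axis for 16 members (points, 1 per array; bars, geometric means), with PG-haESC, ICSI ESC and fibroblast arrays from left to right in each panel. In every panel all ESC arrays lie on the same side of both fibroblast arrays, though for ARID5B the MES1 array, at 1490.3, comes close to them. The fibroblast arrays of SMARCD1 lie far apart at 31.5 and 223, and its ESC groups do not overlap. For SMARCA2 the ICSI ESC arrays lie on both sides of the PG-haESC arrays. Many of the 16 are among the members with the largest called changes.

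Agreement between probe sets bears on all of these calls, since 50 of the 77 members had more than 1 probe set. For the 38 members called in PG-haESCs against fibroblasts, 38 further probe sets were tested, of which 35 had the same sign, 19 were also called in that direction and 1, of KDM3A, was called in the opposite one. For the 37 members called in ICSI ESCs there were 39 further probe sets, of which 34 had the same sign, 20 were also called in it and 2, of KAT8 and KDM3A, were called in the opposite one. Members not called had 9 further probe sets that were called in PG-haESCs and 8 in ICSI ESCs.

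A further 72 genes that the name rule leaves out, partner subunits and other chromatin enzymes and remodelers, were tested. Between PG-haESCs and ICSI ESCs 0 of them were called by limma, against 0.576% of all genes, and 9 (12.5%) had an unadjusted p under 0.05, against 8.79% of all genes. In PG-haESCs 24 (33.3%) were higher and 7 (9.72%) lower than in fibroblasts, against 23.0% and 17.3% of all genes. In ICSI ESCs 19 (26.4%) were higher and 6 (8.33%) lower, against 22.6% and 17.0%. HELLS, a SNF2-family helicase needed for DNA methylation, was higher by 4.97 ± 0.23 and 5.10 ± 0.23 on the log2 scale, and TRIM28, a corepressor that recruits HP1 and lysine 9 methylation, by 2.28 ± 0.21 and 2.38 ± 0.22. The lysine 9 methyltransferases EHMT2 (1.24 ± 0.20 and 1.21 ± 0.20) and SUV39H2 (1.87 ± 0.42 and 1.79 ± 0.43) were higher as well. SUV39H1 was called higher in PG-haESCs only (1.58), and EHMT1, SETDB1 and SETDB2 were not called. Of 5 partners in the NuRD complex, 3 were higher and 2, MBD2 and MTA2, were lower in each ESC group. Of the 12 further BAF subunits, 2 were higher and 4 lower in each ESC group. ACTL6A (BAF53A), the actin-like subunit of dividing cells, was higher by 1.74 ± 0.21 and 1.53 ± 0.22. SS18L1 (CREST), a subunit of the complex in neurons, was lower (-1.92 ± 0.31 and -1.94 ± 0.31), and so was BICRAL (-1.81 ± 0.28 and -1.75 ± 0.28).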

How the data were processed

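Gene expression of Macaca fascicularis cells was measured on Affymetrix Rhesus Macaque arrays in 5 PG-haESC, 3 ICSI ESC and 2 fibroblast samples, grouped by the labels. The deposited values are linear signal intensity, made by the authors with MAS5 per the submitters' processing notes, in a version that those notes leave out. A mean trimmed by 2% at either end of the signals came to 500 on all 10 arrays. The table holds no detection calls, so a signal near the array median may be background. Median signals ran from 76.8 to 133.

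Of 52865 probe sets, 158 controls were left out, and 34139 above the array median on at least 2 arrays were tested. Symbols came from the platform's annotation (24956 probe sets with 1 symbol, 361 with several, 27390 with none) and chromosomes from the RefSeq gene table of the species, which placed 76 of the 77 members. A probe set shared by KDM6B and another gene was left out. Differences between groups came from limma (version 3.58.1, under R version 4.3.3), run on log2 intensity as 1 model of all 10 arrays with the cell line as a random block (correlation 0.29), a variance trend and 2-sided tests, with Benjamini-Hochberg adjustment over all probe sets tested. The method was tested on simulated data. The fit had 7 residual and 5.37 prior degrees of freedom.

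Members, roles and further lists were chosen with earlier results of these data known. Named members are, per comparison, the 5 called with the largest change in each direction, the 5 with the smallest p between the ESC groups, those on X, and a fixed list of Polycomb genes and paralogue pairs; others are named by role. No paired fit was possible. The 24 alternatives changed the block, scaling, offset or floor, filter, variance trend, probe sets, groups fitted or arrays; leaving out the 2 arrays of highest spike-in signal and using the actin ratio as a covariate were added after seeing the data. Plots used matplotlib 3.10.9 (Python 3.11.15).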

Additional observations from a re-analysis of the deposited data

How the results depend on the processing

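Between PG-haESCs and ICSI ESCs the count of members called in limma was 0 and became 1 with arrays as independent samples, with the description code as the block, with quantile normalization and with the actin ratio as a covariate (SMARCB1 each time), and 2 without the 2 arrays of highest spike-in signal (SMARCB1 and SMARCA2). Leaving out each array in turn gave 0 to 1, the 1 being SMARCA2 without MES1. Against fibroblasts, the 38 members called in PG-haESCs became 20 with arrays averaged per line and 24 with arrays centred on their median, and the 37 called in ICSI ESCs became 20 with centred arrays and 21 with the actin ratio. The share of calls that were higher was 55.3% and became 75% with arrays averaged per line and 70.8% with centring in PG-haESCs, and 56.8% became 70.0% with centring in ICSI ESCs. Calls over all genes moved toward higher as well. In PG-haESCs they were 2682 higher and 2009 lower, then 1664 and 1043 averaged per line, and 2670 and 1248 with centring. In ICSI ESCs 2625 higher and 1982 lower became 2467 and 1253 with centring, and 1849 and 1205 with the actin ratio. Leaving out each array gave 26 to 47 and 25 to 45 members called. With all probe sets of each gene averaged, HDAC8 turned to -0.17 (adjusted p 0.78) and KAT8 to -0.16 (adjusted p 0.80) in ICSI ESCs against fibroblasts; their other probe sets ran the opposite way. No other called member changed sign under the 24 alternatives. Of members not called, 39, 20 and 22 changed sign somewhere in the comparisons of PG-haESCs with ICSI ESCs, PG-haESCs with fibroblasts and ICSI ESCs with fibroblasts. The cause of these shifts was not tested. When ICSI ESCs and fibroblasts alone were fitted, the line correlation could not be estimated and arrays were taken as independent. No paired analysis was possible because the replicate numbers only name arrays of different lines or passages. Signals near the array median, such as those of SMARCD3 and ARID5B, limit what could be called.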
